A study of Mus musculus with 54 samples.

Results

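The 45 genes described here encode the proteins that copy DNA in S phase, together with the enzymes that supply nucleotides and histones for it and the cyclins and transcription factor that open S phase. They were chosen by name: a probe belongs to the list where the array's annotation gives it the symbol of 1 of the 45 genes. A probe was found for 44 of them, of 16637 genes with a probe in all, and all 44 were among the 12792 genes bright enough to test. Gins2 had no probe and was not analysed here. The cells were 3T3-L1, a mouse preadipocyte line able to become fat cells, and the 54 arrays form 3 arms of 18 arrays, 1 per arm and time. The arms were prieurianin (a plant limonoid) at 2 µM, DMSO, the solvent, at 0.5%, and an untreated control going through normal differentiation. Samples were taken at 0, 0.25, 0.5 and 1 h, then at 2, 3 and 5 h, next at 9, 12 and 15 h, later at 24, 36 and 48 h, and last at 96, 144, 192, 240 and 288 h. Neither the moment at which the treated arms received the differentiation stimulus nor the use of separate cultures for each time is stated in the labels. The cells are an established line studied in culture, and RNA came from whole cultures.

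DNA replication is prepared in G1, when the origin recognition complex, Cdc6 and Cdt1 load the MCM2-7 helicase onto origins in an inactive form. At S phase the helicase is switched on by Cdc45 and the GINS complex, primase and the polymerases copy the opened strands behind the sliding clamp PCNA, and lagging-strand fragments are trimmed by Fen1 and joined by Lig1. Many of these genes are controlled by E2F transcription factors, which the retinoblastoma protein holds back until G1 cyclins and then cyclin E act, and 3T3-L1 cells that receive the differentiation stimulus at confluence are known to pass through rounds of division, called mitotic clonal expansion, before they form fat.

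Promoter sequences are shown because E2F words are the feature these genes are best known to share. RefSeq windows (build GRCm38.p6, 250 bases before to 50 bases after each start) were matched for 38 of the 45 genes, with 44 windows among them. They were searched on both strands for the E2F words TTTCCCGC, TTTCGCGC, TTTGCCGC and TTTGGCGC. A word was present in 13 of the 44 windows (29.55%), against 744 of all 32851 windows (2.26%). The 13 genes were Mcm3, Mcm5, Mcm6, Mcm7, Orc1, Cdc6, Cdt1, Gins3, Pola1, Pold1, Rfc3, Lig1 and Uhrf1. In the sequences below, read 5′ to 3′ on the gene's strand, capitals mark E2F words. Mcm5 (chr8:75109259-75109558, plus strand) holds a pair of overlapping words on opposite strands. Mcm6 (chr1:128359656-128359955, minus strand) holds such a pair and a further single word. Mcm3 (chr1:20820263-20820562, minus strand) holds its words after the start, and Cdc6 (chr11:98907901-98908200, plus strand) holds a single one. Ccne1 (chr7:38107441-38107740, minus strand) is shown as a gene of the same list with none of these words in its window.
Mcm5: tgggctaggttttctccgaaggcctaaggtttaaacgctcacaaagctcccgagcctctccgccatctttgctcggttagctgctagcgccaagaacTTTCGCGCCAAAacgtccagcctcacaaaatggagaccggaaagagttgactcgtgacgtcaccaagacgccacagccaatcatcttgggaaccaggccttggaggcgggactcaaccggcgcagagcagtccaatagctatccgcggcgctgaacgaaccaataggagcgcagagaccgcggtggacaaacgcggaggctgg
Mcm6: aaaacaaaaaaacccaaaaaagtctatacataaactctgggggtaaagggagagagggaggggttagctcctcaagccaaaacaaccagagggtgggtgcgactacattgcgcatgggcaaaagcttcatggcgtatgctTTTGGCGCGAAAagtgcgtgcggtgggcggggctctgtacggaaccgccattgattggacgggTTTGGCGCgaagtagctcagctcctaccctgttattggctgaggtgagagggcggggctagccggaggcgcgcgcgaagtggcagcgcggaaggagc
Mcm3: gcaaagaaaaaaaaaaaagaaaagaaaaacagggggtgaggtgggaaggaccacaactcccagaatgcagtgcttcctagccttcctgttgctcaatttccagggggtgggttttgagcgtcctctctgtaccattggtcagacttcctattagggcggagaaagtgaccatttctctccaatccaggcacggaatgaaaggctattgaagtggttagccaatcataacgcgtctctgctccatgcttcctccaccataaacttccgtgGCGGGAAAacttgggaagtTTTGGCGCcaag
Cdc6: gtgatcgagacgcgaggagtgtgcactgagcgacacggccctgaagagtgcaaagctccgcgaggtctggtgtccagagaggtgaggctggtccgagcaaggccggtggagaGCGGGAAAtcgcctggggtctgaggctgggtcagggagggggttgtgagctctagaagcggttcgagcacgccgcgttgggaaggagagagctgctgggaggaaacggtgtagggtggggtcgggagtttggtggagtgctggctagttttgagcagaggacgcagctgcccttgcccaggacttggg
Ccne1: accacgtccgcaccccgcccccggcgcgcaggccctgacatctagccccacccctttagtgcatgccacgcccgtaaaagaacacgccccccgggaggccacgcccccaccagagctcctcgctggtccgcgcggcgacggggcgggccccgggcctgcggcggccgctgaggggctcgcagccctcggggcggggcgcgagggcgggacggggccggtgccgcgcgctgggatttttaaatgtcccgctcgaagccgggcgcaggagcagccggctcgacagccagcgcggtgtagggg

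The CCAAT box (CCAAT on either strand) was present in 61.36% of the list's windows and in 37.41% of all windows. It was in 78.79% of the windows of a list of G2 and mitosis genes and in 51.39% of those of other replication and S-phase genes. The CHR element was searched as TTTGAA or TTCGAA on either strand. It was in 13.64% of the list's windows, against 19.23% of all windows and 78.79% of the mitosis list's windows. That mitosis list held an E2F word in 3.03% of its windows. The other replication and S-phase genes held one in 30.56%, so neither the E2F words nor the CCAAT box were particular to the list. These are matches of letters, not measured sites of binding.

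Levels are given as log2(normalised intensity + 16), and differences are on the same scale, which understates changes of dim genes. As deposited, the median intensity per array ran from 88 to 313, and no probe of the list was saturated. Of 8 preadipocyte and fibroblast markers, Dlk1 averaged 15.81, 15.87 and 15.78 at 0 to 5 h in prieurianin, DMSO and untreated cells. At 96 to 288 h it averaged 14.99, 15.47 and 15.35. Col1a1 went the other way, at 13.95, 12.94 and 13.19 in the same order. Against DMSO at those late times, 4 of the 8 markers were higher with prieurianin and 4 lower. Of all 12792 genes tested 6705 were higher and 6087 lower. Not all of these markers were bright: Cd34 averaged 7.15, 7.02 and 7.13 at 0 to 5 h. Pdgfrb averaged 12.53, 12.47 and 12.40 at 0 to 5 h and fell to 10.60, 10.89 and 10.90 at 9 to 15 h. The adipocyte marker Adipoq averaged 12.77 at 96 to 288 h with prieurianin, against 15.49 in both DMSO and untreated cells. One array stood apart from its neighbours. The mean of 6 adipocyte markers in the prieurianin arm was 12.42, 12.69, 14.63, 10.68 and 10.47 at 96, 144, 192, 240 and 288 h, against 13.65, 14.41, 14.13, 14.39 and 14.41 in the DMSO arm and 13.55, 14.26, 14.21, 14.20 and 14.37 in the untreated arm. The prieurianin array at 192 h thus lay at the level of the controls while those around it lay below. Whether the label of that array holds cannot be settled from the files, so each prieurianin value at 192 h is that of the array so labelled, and the main counts from late times are given with and without 192 h. Each arm has 1 array per time, so neighbouring times stand in for replicates, and p-values measure the spread of an arm difference between times, which are not independent. The number of arrays limits the precision.

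In both control arms the replication genes rose in a wave with its top at 12 to 15 h. The mean over the 44 genes was 10.96 and 10.86 at 5 h in DMSO and untreated cells, 11.62 and 11.57 at 9 h, 12.07 and 12.00 at 12 h and 12.18 and 12.11 at 15 h. It then declined, to 11.68 and 11.72 at 24 h and 11.05 and 10.96 at 48 h. Against the controls' own mean at 2 to 5 h, limma called 34 genes of the list higher at 9 h (10.5% of all genes were called higher). By 12 h there were 40 (13.6% of all genes) and by 15 h 41 (14.1%). Afterwards 36 were still higher at 24 h (13.4%), then 22 at 36 h (16.5%) and 11 at 48 h (18%), and at 96 to 288 h 35 genes were lower (26.5%). The clamp loader subunit Rfc1 was the exception at those late times, higher by 0.45 ± 0.07 (SE, limma adjusted p = 2.3e-05). At 48 h, besides the 11 still higher, 6 of the 44 were lower, as were 2137 of all 12792 genes. Such calls at 48 h were thus not particular to the list.

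**Figure D1:**
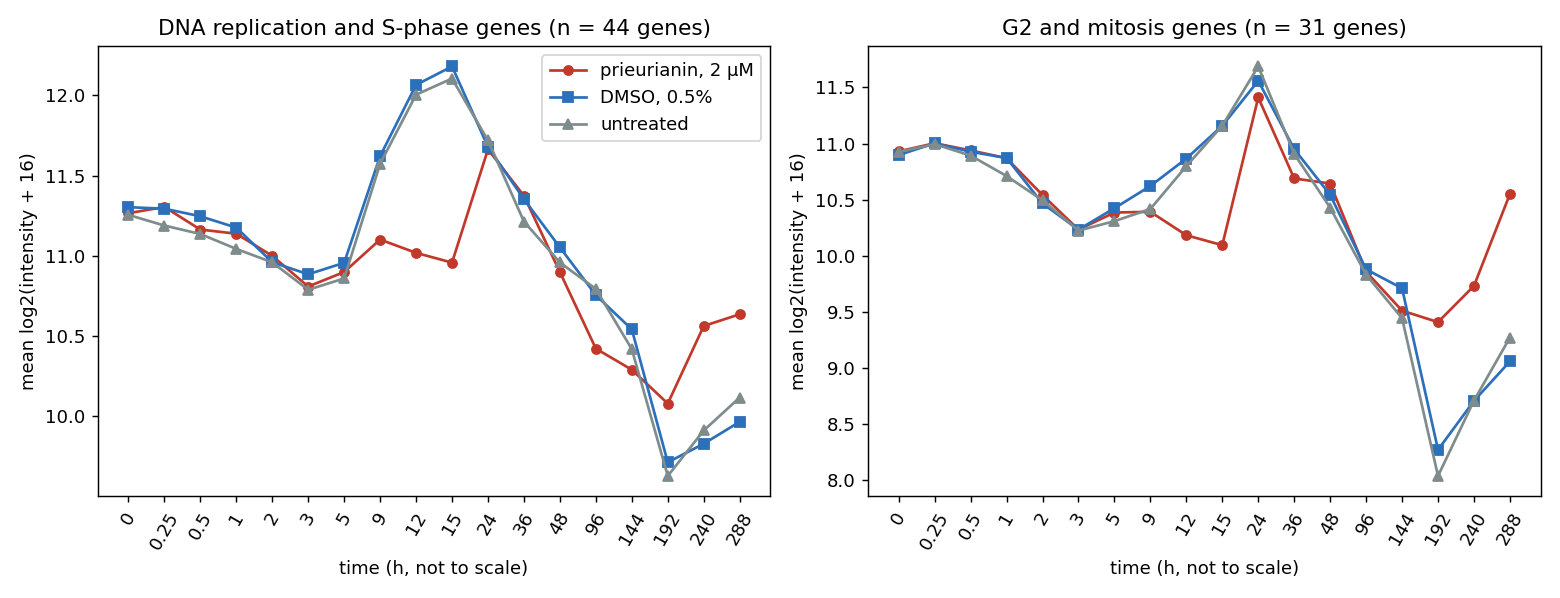
Mean log2 level of the 44 replication genes (left) and of 31 G2 and mitosis genes (right) by time (h, not to scale) in prieurianin, DMSO and untreated arms, 1 array per point. For the replication genes both controls peak at 15 h, near 12.1 to 12.2, while the prieurianin arm peaks at 24 h, at 11.66, and lies above the controls at 192 to 288 h.

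The size of the wave differed between genes. Cdc6, which loads the helicase onto origins, rose by 2.28 at 12 h and by 1.99 ± 0.22 at 15 h, a 3.98-fold rise (limma adjusted p = 6.78e-07 at 15 h). At 15 h the increases were 1.99 ± 0.19 for cyclin E2 (Ccne2), 1.91 ± 0.13 for thymidine kinase (Tk1), 1.85 ± 0.13 for cyclin E1 (Ccne1), 1.76 ± 0.24 for the fork scaffold protein Wdhd1, 1.74 ± 0.09 for the primase subunit Prim1 and 1.68 ± 0.13 for Uhrf1, which reads hemimethylated DNA behind the fork. The 3 genes not called higher at 15 h were Npat, Orc2 and Slbp, at 0.32 ± 0.20, 0.47 ± 0.22 and 0.92 ± 0.36. Npat activates histone genes, Orc2 is an origin recognition subunit and Slbp binds the stem-loop of histone mRNA.

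The order of the rise was also spread out. For genes whose level rose by at least 1 on the log2 scale, the midpoint of the rise was read off by interpolation between samples, and it is a description with no test. Its median over 35 genes in each control was 8.47 h in DMSO and 8.57 h in untreated cells. In DMSO cells the earliest midpoints were those of Orc1 (5.92 h), Wdhd1 (6.02 h), Fen1 and the GINS subunit Gins3 (6.38 h each), Cdc6 (6.64 h) and Ccne1 (6.86 h). The latest were those of Lig1 (11.01 h), Gins1 (10.97 h) and the clamp loader subunit Rfc4 (10.81 h). In untreated cells Gins3 (5.93 h), Cdc6 (6.58 h) and Fen1 (6.63 h) were again early, and Lig1 (11.59 h) and Rfc4 (11.35 h) late. The midpoints of Prim2 (11.6 h) and Pole (11.46 h) were also late there. Gins1 and Orc1 rose by less than 1 in untreated cells (0.90 and 0.96), so their places in DMSO could not be compared.

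With prieurianin no such rise of the list was seen at 9 to 15 h. The mean of the list was 11.10, 11.02 and 10.96 at 9, 12 and 15 h in prieurianin cells, against 11.62, 12.07 and 12.18 in DMSO cells and 11.57, 12.00 and 12.11 in untreated cells. The gap to DMSO was -0.52, -1.05 and -1.22, a mean of -0.93 ± 0.37 (SD over 3 times). Before it, at 0.25 to 5 h, the gap was -0.03 ± 0.05 (SD over 6 times). In limma's fit 0 of the 44 genes differed from DMSO at 0.25 to 5 h (0% of all genes were called, and 1 of the 44 had an unadjusted p under 0.05). The outlying cell of the early hours was Npat at 3 h, at 8.47 with prieurianin and 10.33 in DMSO. At 9 to 15 h 40 of the 44 were lower than in DMSO (9.01% of all genes were called lower) and 0 were higher, with a median difference of -0.91 over the list and -0.01 over all genes tested. Against untreated cells, a comparison that uses the same prieurianin arrays, 37 of the 44 were lower (14% of all genes). For 35 of the 44 genes all 3 prieurianin arrays lay below all 6 control arrays. That count was not made over all genes, so it has no share to be set against. The count against DMSO was 21 when 15 h was left out and 18 without time as a block, and under median scaling it was 23. In bulk RNA, fewer cells in S phase and less RNA per cell cannot be told apart.

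**Figure D2:**
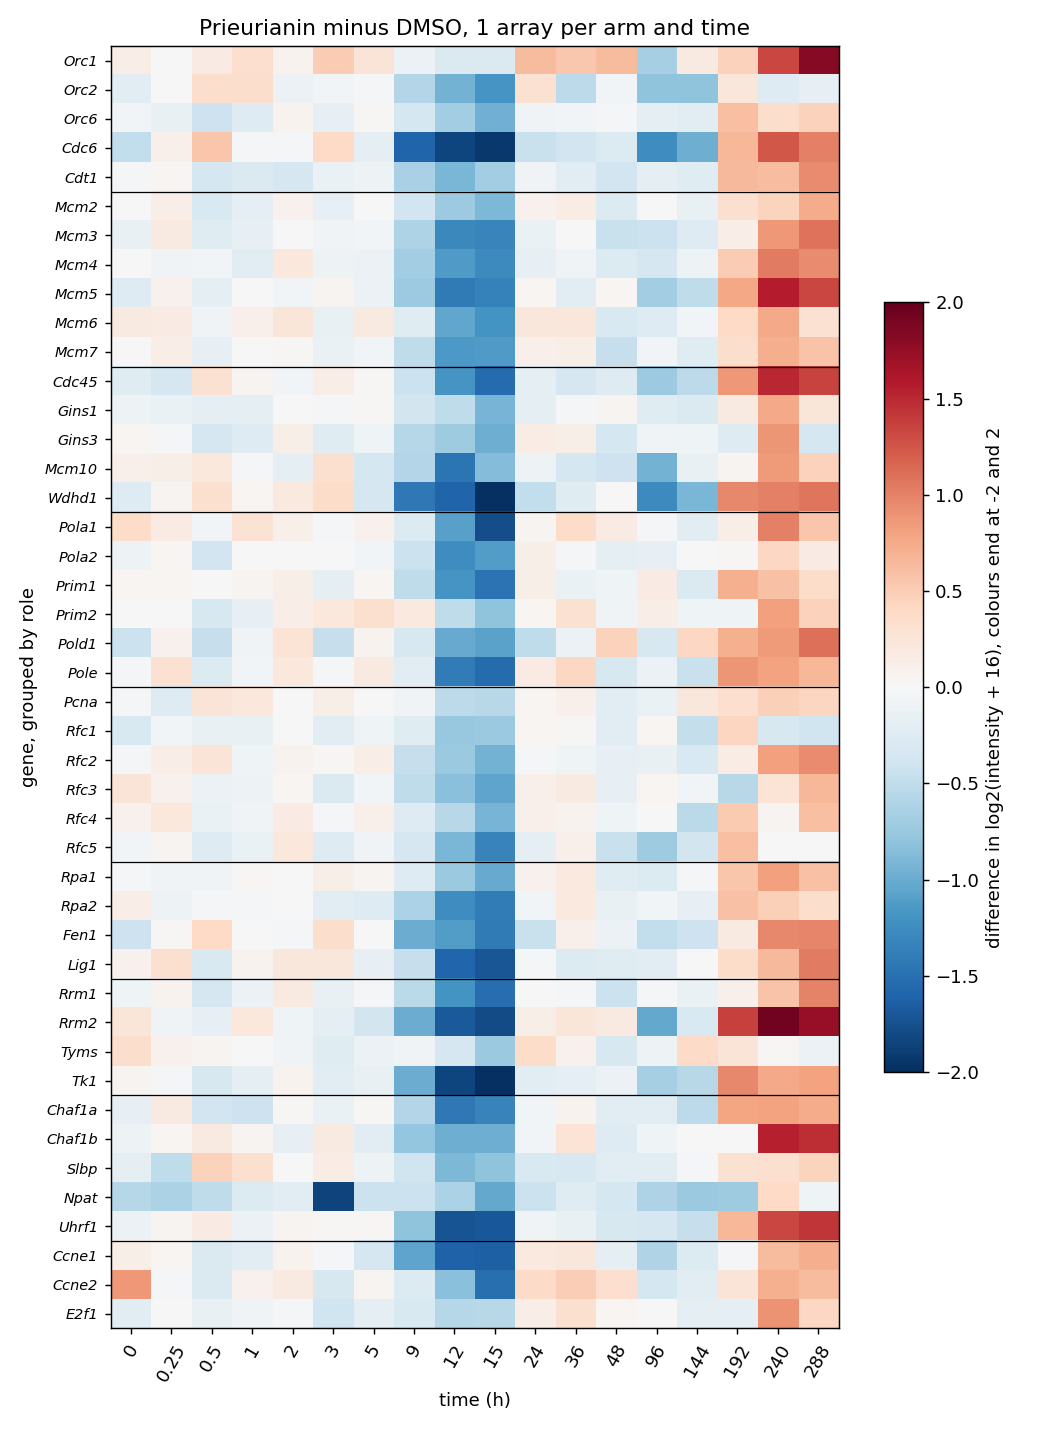
Prieurianin minus DMSO log2 difference for each of the 44 genes (down the page, by role) at each of the 18 times (h, across), with lines between roles, blue for lower and red for higher. The columns at 12 and 15 h are negative for all 44 genes, and most genes are positive at 192, 240 and 288 h.

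Origin recognition and licensing genes were lower than in DMSO for 4 of 5 members. Cdc6 read 10.53, 10.75 and 10.33 at 9, 12 and 15 h with prieurianin, against 12.13, 12.59 and 12.26 in DMSO and 11.86, 11.96 and 11.72 in untreated cells. Every prieurianin value lay below every control value, and the difference from DMSO was -1.79 ± 0.32 (3.45-fold, limma adjusted p = 0.000181). Cdt1, its partner in loading the helicase, differed by -0.76 ± 0.16, the origin recognition subunit Orc6 by -0.67 ± 0.13 and Orc2 by -0.90 ± 0.20. Orc2 was not below untreated cells at any of these times. It read 8.71, 8.43 and 8.23 with prieurianin, 9.30, 9.38 and 9.40 in DMSO and 8.16, 8.40 and 8.22 in untreated cells. Orc1, the largest subunit of the complex, did not pass (-0.23 ± 0.26, adjusted p = 0.623). Its values were 9.38, 9.25 and 9.16 with prieurianin, 9.50, 9.55 and 9.45 in DMSO and 9.19, 9.27 and 8.86 in untreated cells. The prieurianin values thus lay below those of DMSO by little and overlapped those of untreated cells.

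All 6 subunits of the MCM2-7 helicase were lower than in both controls. The mean of the 6 was 12.46, 12.41 and 12.28 at 9, 12 and 15 h with prieurianin, against 12.99, 13.53 and 13.47 in DMSO and 12.95, 13.53 and 13.64 in untreated cells. The prieurianin mean was highest at 9 h, whereas both controls were higher at 12 and 15 h than at 9 h. Mcm5 read 12.96, 12.89 and 12.88 with prieurianin, against 13.68, 14.30 and 14.23 in DMSO and 13.64, 14.24 and 13.76 in untreated cells, a difference from DMSO of -1.16 ± 0.29 (2.24-fold, limma adjusted p = 0.00498). The other subunits differed by -1.07 ± 0.23 (Mcm3), -1.04 ± 0.20 (Mcm4), -0.93 ± 0.16 (Mcm7), -0.82 ± 0.16 (Mcm6) and -0.67 ± 0.15 (Mcm2). Of the sequences shown, Mcm5, Mcm6, Mcm3 and Cdc6 hold E2F words, and Ccne1, described below, holds none.

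The 5 measured genes of helicase activation and the fork scaffold were all lower than in DMSO. Wdhd1, which ties the polymerase alpha complex to the helicase, had the largest difference of the list. It read 8.94, 9.23 and 8.10 at 9, 12 and 15 h with prieurianin, against 10.36, 10.82 and 10.62 in DMSO and 9.91, 10.34 and 10.17 in untreated cells. The groups did not overlap, and the difference from DMSO was -1.85 ± 0.34 (3.59-fold, limma adjusted p = 0.000218). The helicase cofactor Cdc45 differed by -1.05 ± 0.26, Mcm10, which takes part in firing origins, by -0.97 ± 0.25, and the GINS subunits Gins3 and Gins1 by -0.75 ± 0.17 and -0.60 ± 0.15. Cdc45 was not called against untreated cells, at -0.36 ± 0.26 (adjusted p = 0.347). Its level at 12 h was 11.54 with prieurianin, 12.72 in DMSO and 12.08 in untreated cells.

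Among the polymerases and primase 5 of 6 genes were lower than in DMSO, and all 6 were lower than in untreated cells. The primase catalytic subunit Prim1 and the polymerase alpha catalytic subunit Pola1 differed from DMSO by -1.05 ± 0.16 and -1.05 ± 0.21. The leading-strand polymerase catalytic subunit Pole differed by -1.05 ± 0.26, the accessory subunit of polymerase alpha Pola2 by -0.93 ± 0.14 and the lagging-strand catalytic subunit Pold1 by -0.80 ± 0.24. Prim2, the large primase subunit, was called only against untreated cells (-0.70 ± 0.17, against -0.38 ± 0.17 in the DMSO comparison). All 6 clamp and clamp loader genes were lower than in DMSO, with modest sizes: Rfc5 -0.87 ± 0.18, Rfc3 -0.80 ± 0.16, Rfc2 -0.72 ± 0.17, Rfc1 -0.58 ± 0.14, Rfc4 -0.58 ± 0.17 and Pcna -0.39 ± 0.13. Pcna, the sliding clamp, was not called against untreated cells (-0.08 ± 0.13).

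The 4 genes of single-strand binding and fragment joining were all lower. Rpa2, a subunit of the protein that coats single-stranded DNA, read 11.66, 11.26 and 11.44 at 9, 12 and 15 h with prieurianin, against 12.29, 12.50 and 12.83 in DMSO and 12.46, 12.77 and 12.87 in untreated cells. The values did not overlap and the difference from DMSO was -1.09 ± 0.14 (2.12-fold, limma adjusted p = 2.25e-06). Its partner Rpa1 differed by -0.67 ± 0.15. Lig1, the ligase, read 10.70, 10.63 and 10.71 with prieurianin, against 11.15, 12.22 and 12.43 in DMSO and 11.03, 12.22 and 12.78 in untreated cells, a difference of -1.25 ± 0.22 (2.38-fold, adjusted p = 0.000103). All 6 control values again lay above the 3 prieurianin values. Fen1, the flap nuclease, read 11.19, 11.34 and 10.85 with prieurianin, against 12.17, 12.45 and 12.26 in DMSO and 12.07, 12.24 and 12.26 in untreated cells (-1.17 ± 0.23 from DMSO, 2.25-fold, adjusted p = 0.00064).

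Genes of nucleotide supply were lower for 3 of 4 members. Tk1, which recycles thymidine, read 11.05, 10.92 and 11.002 at 9, 12 and 15 h with prieurianin, against 12.03, 12.76 and 13.31 in DMSO and 12.38, 13.22 and 13.62 in untreated cells. The gap widened with time, and the difference was -1.71 ± 0.25 from DMSO (3.27-fold, limma adjusted p = 8.28e-06) and -2.08 ± 0.25 from untreated cells. Rrm2 and Rrm1, the subunits of ribonucleotide reductase, differed from DMSO by -1.49 ± 0.34 (2.80-fold, adjusted p = 0.00261) and -1.08 ± 0.19 (2.12-fold, adjusted p = 0.000159). Rrm2 read 12.36, 12.13 and 12.22 with prieurianin, against 13.35, 13.81 and 14.01 in DMSO and 13.43, 13.81 and 13.45 in untreated cells. Rrm1 read 10.69, 10.48 and 10.46 with prieurianin, against 11.23, 11.68 and 11.98 in DMSO and 11.23, 11.79 and 12.27 in untreated cells. Neither subunit's arms overlapped. Thymidylate synthase, Tyms, did not pass against DMSO (-0.38 ± 0.15, adjusted p = 0.089). A dimmer probe of Tk1 gave a smaller difference, -0.63, and those of Rrm2, at -1.41, and Cdc6, at -1.52 and -1.50, came close to the probes used.

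Of the 5 chromatin and histone genes 4 were lower than in DMSO. Uhrf1 read 11.65, 11.45 and 11.34 at 9, 12 and 15 h with prieurianin, against 12.45, 13.18 and 13.03 in DMSO and 12.43, 12.71 and 12.77 in untreated cells (-1.41 ± 0.25 from DMSO, 2.66-fold, limma adjusted p = 0.000163). No prieurianin value reached a control value. Chaf1a, the large subunit of the CAF-1 histone chaperone, read 10.84, 10.56 and 10.48 with prieurianin, against 11.43, 11.99 and 11.82 in DMSO and 11.62, 12.02 and 12.47 in untreated cells (-1.12 ± 0.22 from DMSO, 2.18-fold, adjusted p = 0.000544). Its partner Chaf1b differed by -0.91 ± 0.23. Uhrf1 and Npat each had a dimmer second probe, with smaller differences of -0.46 and -0.24. On the probe used, Npat was lower than in DMSO by -0.69 ± 0.23. It had also been below DMSO at each of the 7 earlier times, by -0.65 ± 0.16 at 0.25 to 5 h (not called, adjusted p = 0.482), so its difference at 9 to 15 h was about that of the first hours. Slbp did not pass (-0.70 ± 0.26, adjusted p = 0.0573). Against untreated cells Npat and Slbp differed by -0.07 ± 0.23 and 0.57 ± 0.26, neither called.

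All 3 S-phase entry genes were lower than in DMSO. Ccne1, a partner of Cdk2, read 9.45, 9.22 and 9.31 at 9, 12 and 15 h with prieurianin, against 10.51, 10.84 and 10.94 in DMSO and 10.61, 11.10 and 11.30 in untreated cells. The arms did not overlap, and Ccne1 was lower by -1.44 ± 0.19 (2.70-fold, limma adjusted p = 2.25e-06). Ccne2 differed by -0.87 ± 0.20. E2f1, an activating E2F, differed by -0.47 ± 0.16 from DMSO (adjusted p = 0.0459) and by -0.36 ± 0.16 from untreated cells, which was not called.

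**Figure D3:**
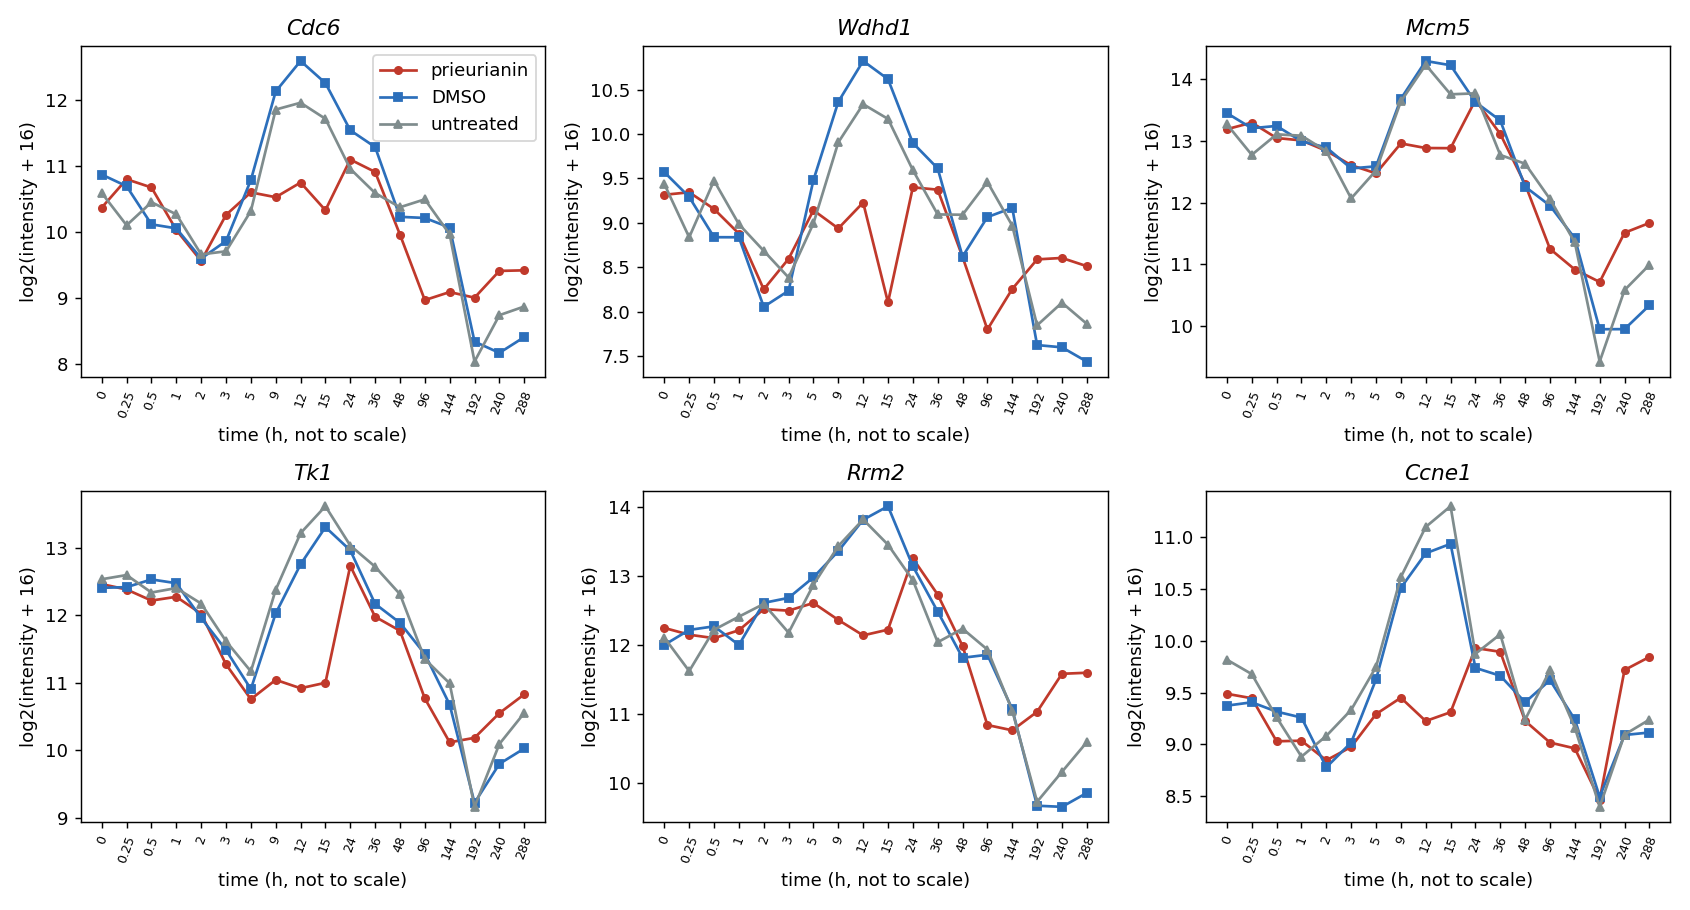
Log2 level of Cdc6, Wdhd1, Mcm5, Tk1, Rrm2 and Ccne1 by time (h, evenly spaced and not to scale) in the prieurianin, DMSO and untreated arms, 1 array per point. Tk1 stays near 11 with prieurianin at 9 to 15 h, where the controls lie at 12.03 to 13.62, and reaches 12.74 at 24 h.

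Between the DMSO and untreated arms, genes of the list were called at a share close to that of all genes in the 3 windows given here. At 0.25 to 5 h 3 were called, all higher in DMSO than in untreated cells, at 1.07 (Slbp), 0.63 (Npat) and 0.60 (Orc2), while 6.16% of all genes were called. At 9 to 15 h the mean of the list was higher in DMSO than in untreated cells by 0.06 ± 0.01 (SD over 3 times). Slbp (1.27 ± 0.26, limma adjusted p = 0.00286) and Orc2 (1.10 ± 0.20, adjusted p = 0.00146) were called, both higher in DMSO, while 6% of all genes were called in either direction. At 24 to 48 h 4 were higher in DMSO, at 1.68 (Slbp), 0.85 (Cdc45), 0.85 (Orc2) and 0.56 (Pcna), while 10.2% of all genes were called. At 9 to 15 h 35 genes were called lower with prieurianin against both controls, 5 against DMSO only (Cdc45, Npat, E2f1, Pcna and Orc2) and 2 against untreated cells only (Prim2 and Tyms). Of these, Orc2 was called between the controls themselves in that window.

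At 24 h the mean of the list with prieurianin was close to that of both controls. The mean of the list was 11.66, 11.37 and 10.90 at 24, 36 and 48 h with prieurianin, against 11.68, 11.35 and 11.05 in DMSO and 11.72, 11.21 and 10.96 in untreated cells. At 24 to 48 h 0 of 44 genes were called against DMSO by limma (1.31% of all genes were called, and 2 of the 44, Ccne2 at 0.40 and Orc1 at 0.60, had an unadjusted p under 0.05). Against untreated cells 4 were called, all higher with prieurianin, at 1.40 (Slbp), 0.93 (Orc1), 0.76 (Orc2) and 0.53 (Pcna), while 8.87% of all genes were called. Of these, Slbp, Orc2 and Pcna were also higher in DMSO than in untreated cells. The difference from DMSO was higher at 24 to 48 h than at 9 to 15 h for all 44 genes, and for 6637 of all 12792 genes. Of the 44, 12 passed the test of that change (2.17% of all genes passed upward). The largest were Tk1 (1.53 ± 0.35, adjusted p = 0.0124), Ccne1 (1.52 ± 0.27, adjusted p = 0.00192), Ccne2 (1.27 ± 0.28, adjusted p = 0.00925), Pola1 (1.24 ± 0.30, adjusted p = 0.0186), Uhrf1 (1.23 ± 0.36, adjusted p = 0.0484) and Rpa2 (1.08 ± 0.20, adjusted p = 0.00343). Leaving out single times moved that count between 2, without 12 h or without 15 h, and 24, without 9 h. Cdc6, Rrm2 and Wdhd1, with changes of 1.42, 1.66 and 1.60, missed the threshold.

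At 24 h Tk1 stood at 12.74 with prieurianin, 12.97 in DMSO and 13.04 in untreated cells. Mcm5 stood at 13.66, 13.63 and 13.77 in the same order, and Rrm2 at 13.25, 13.14 and 12.93. In each of the 3 genes the prieurianin value lay near both controls, above them for Rrm2 and below them for Tk1. The highest value between 5 and 96 h fell at 24 h for 38 of 44 genes with prieurianin, whereas in DMSO it fell at 12 h for 12 genes, at 15 h for 31 and at 24 h for 1. In untreated cells it fell at 12 h for 12 genes, at 15 h for 28, at 24 h for 3 and at 5 h for 1. No sample was taken between 15 and 24 h, so the top of the prieurianin wave could lie anywhere between those samples and 36 h. The rise over 2 to 5 h was smaller with prieurianin, with a median of 0.80, against 1.33 in DMSO and 1.38 in untreated cells, and it reached 1 for 9 genes, against 35 in each control. For those 9 the median midpoint was 18.1 h. They include Ccne2, which alone of the 9 had its top at 9 h with a midpoint of 5.65 h, and Cdt1 at 8.04 h, Mcm5 at 18.1 h, Prim1 at 18.52 h, Uhrf1 at 19.35 h and Tk1 at 20.41 h.

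**Figure D4:**
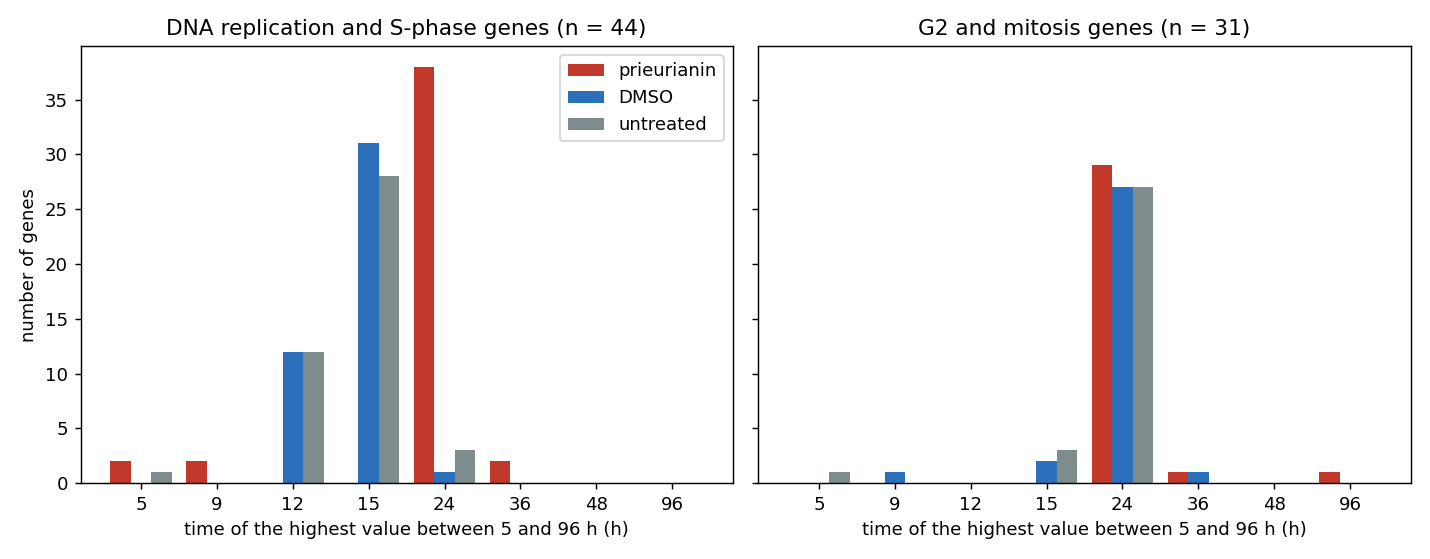
Number of the 44 replication genes (left) and of 31 G2 and mitosis genes (right) whose highest value between 5 and 96 h falls at each sampled time (h), for prieurianin, DMSO and untreated cells. The replication genes gather at 24 h with prieurianin (38 genes) and at 12 and 15 h in the controls (12 and 31 in DMSO, 12 and 28 in untreated), while the mitosis genes gather at 24 h in all arms (29, 27 and 27). Peak times do not show when the mitosis genes began to rise, which differed between arms.

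Set against the same arm's first 5 h, prieurianin cells showed little change in these genes at 9 to 15 h. In a fit of window means limma called 4 of 44 (12.5% of all genes were called): Ccne2 higher by 0.96 ± 0.25 and E2f1 by 0.58 ± 0.17, Lig1 lower (-1.07 ± 0.31) and Pola1 lower (-0.74 ± 0.25). In the same fit 27 genes were higher in DMSO cells (6.33% of all genes) and 27 in untreated cells (7.02%). At 24 to 48 h prieurianin had 4 called (10.8%), all higher: Ccne2 0.95 ± 0.25, Gins3 0.79 ± 0.23, E2f1 0.57 ± 0.17 and Rfc1 0.41 ± 0.13. The difference between the prieurianin and DMSO courses at 9 to 15 h was negative for all 44, and for 6483 of all 12792 genes. It passed for 3 of the 44 (0.571% of all genes passed downward), Wdhd1, Ccne1 and Rpa2, in this fit, which does not match arrays by time.

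From 96 h on the list was low in every arm. At 96 to 288 h 30 genes were lower than at 0 to 5 h with prieurianin (16.4% of all genes), 36 in DMSO (17.6%) and 33 in untreated cells (19.1%). Over that whole span 5 genes were higher with prieurianin than with DMSO (8.08% of all genes were called higher). They were Orc1 (0.62 ± 0.20, limma adjusted p = 0.0285), Chaf1b (0.59 ± 0.18, adjusted p = 0.0216), Pold1 (0.55 ± 0.19, adjusted p = 0.0395), Cdt1 (0.36 ± 0.12, adjusted p = 0.0388) and Rpa1 (0.33 ± 0.11, adjusted p = 0.0423). The count was 2 without 192 h, 0 without 240 h or without 288 h, and 14 and 15 without 96 h or 144 h.

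The late span held opposite signs, and it was split at 144 h after seeing the data. A cut placed with the signs known cannot test them, so calls and p-values from its parts are descriptions only. At 96 and 144 h the list's mean was 10.42 and 10.29 with prieurianin, against 10.76 and 10.54 in DMSO and 10.79 and 10.42 in untreated cells. At 192, 240 and 288 h it was 10.08, 10.56 and 10.64 with prieurianin, against 9.71, 9.83 and 9.97 in DMSO and 9.63, 9.91 and 10.12 in untreated cells. Prieurianin cells thus lay below both controls at the earlier pair of times and above both at the later 3. At 96 to 144 h 4 genes were lower than in DMSO (2.44% of all genes): Cdc6 (-1.11 ± 0.22), Wdhd1 (-1.09 ± 0.26), Orc2 (-0.80 ± 0.23) and Cdc45 (-0.62 ± 0.17). With 192 h left out of the fit 7 were lower (6.5% of all genes), the same 4 with Tk1 (-0.61), Mcm5 (-0.60) and Rfc5 (-0.54). Against untreated cells 9 were lower at 96 to 144 h (6.04% of all genes), with the largest differences for Cdc6 (-1.20), Wdhd1 (-1.19) and the flap endonuclease Fen1 (-0.99), and 1, Pcna, was higher (0.48).

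At 192 to 288 h 30 of 44 were higher than in DMSO (10% of all genes were called higher), with a median of 0.55, and 27 were higher than in untreated cells (10.3%). Without 192 h the count against DMSO was 34 (15.7% of all genes), and it held all 30, and the count against untreated cells was 26 (14.4%). The ribonucleotide reductase subunit Rrm2 read 11.03, 11.58 and 11.59 at 192, 240 and 288 h with prieurianin, against 9.67, 9.65 and 9.85 in DMSO and 9.72, 10.16 and 10.59 in untreated cells. No prieurianin value overlapped a control value, and the difference from DMSO was 1.68 ± 0.19 (limma adjusted p = 3.73e-07), or 1.83 ± 0.23 without 192 h. Cdc45 differed by 1.24 ± 0.14 (1.42 without 192 h), Mcm5 by 1.22 ± 0.18 (1.45), Orc1 by 1.20 ± 0.20 (1.58), Uhrf1 by 1.14 ± 0.14 (1.38) and Wdhd1 by 1.02 ± 0.21 (1.04). All 6 MCM2-7 genes, 4 of 5 licensing genes and 4 of 4 single-strand binding and joining genes were higher, whereas 2 of 6 clamp and loader genes were (Rfc2 and Pcna). A total of 29 of the 44 genes were both lower than in DMSO at 9 to 15 h and higher at 192 to 288 h, as were 247 of all 12792 genes (1.93%).

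The change of the prieurianin to DMSO difference between 96 to 144 h and 192 to 288 h passed upward for 20 genes (4.16% of all genes), and for 25 without 192 h (5.5%). Since the cut was made with these values known, passing here is no support for a change. Rrm2 changed by 2.34 ± 0.30, Wdhd1 by 2.11 ± 0.34, Cdc6 by 2.08 ± 0.29, Cdc45 by 1.86 ± 0.22 and Mcm5 by 1.83 ± 0.29. The same late prieurianin arrays at 240 and 288 h had low adipocyte markers (10.68 and 10.47, against 14.39 and 14.41 in DMSO and 14.20 and 14.37 in untreated cells). At 192 h, where these markers were at the control level, 37 of the 44 genes were above DMSO, as against 42 at 240 h and 39 at 288 h. No such counts were made over all genes, and the count at 192 h rests on the array whose label cannot be settled. The part of these markers in the late difference was not tested.

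**Figure D5:**
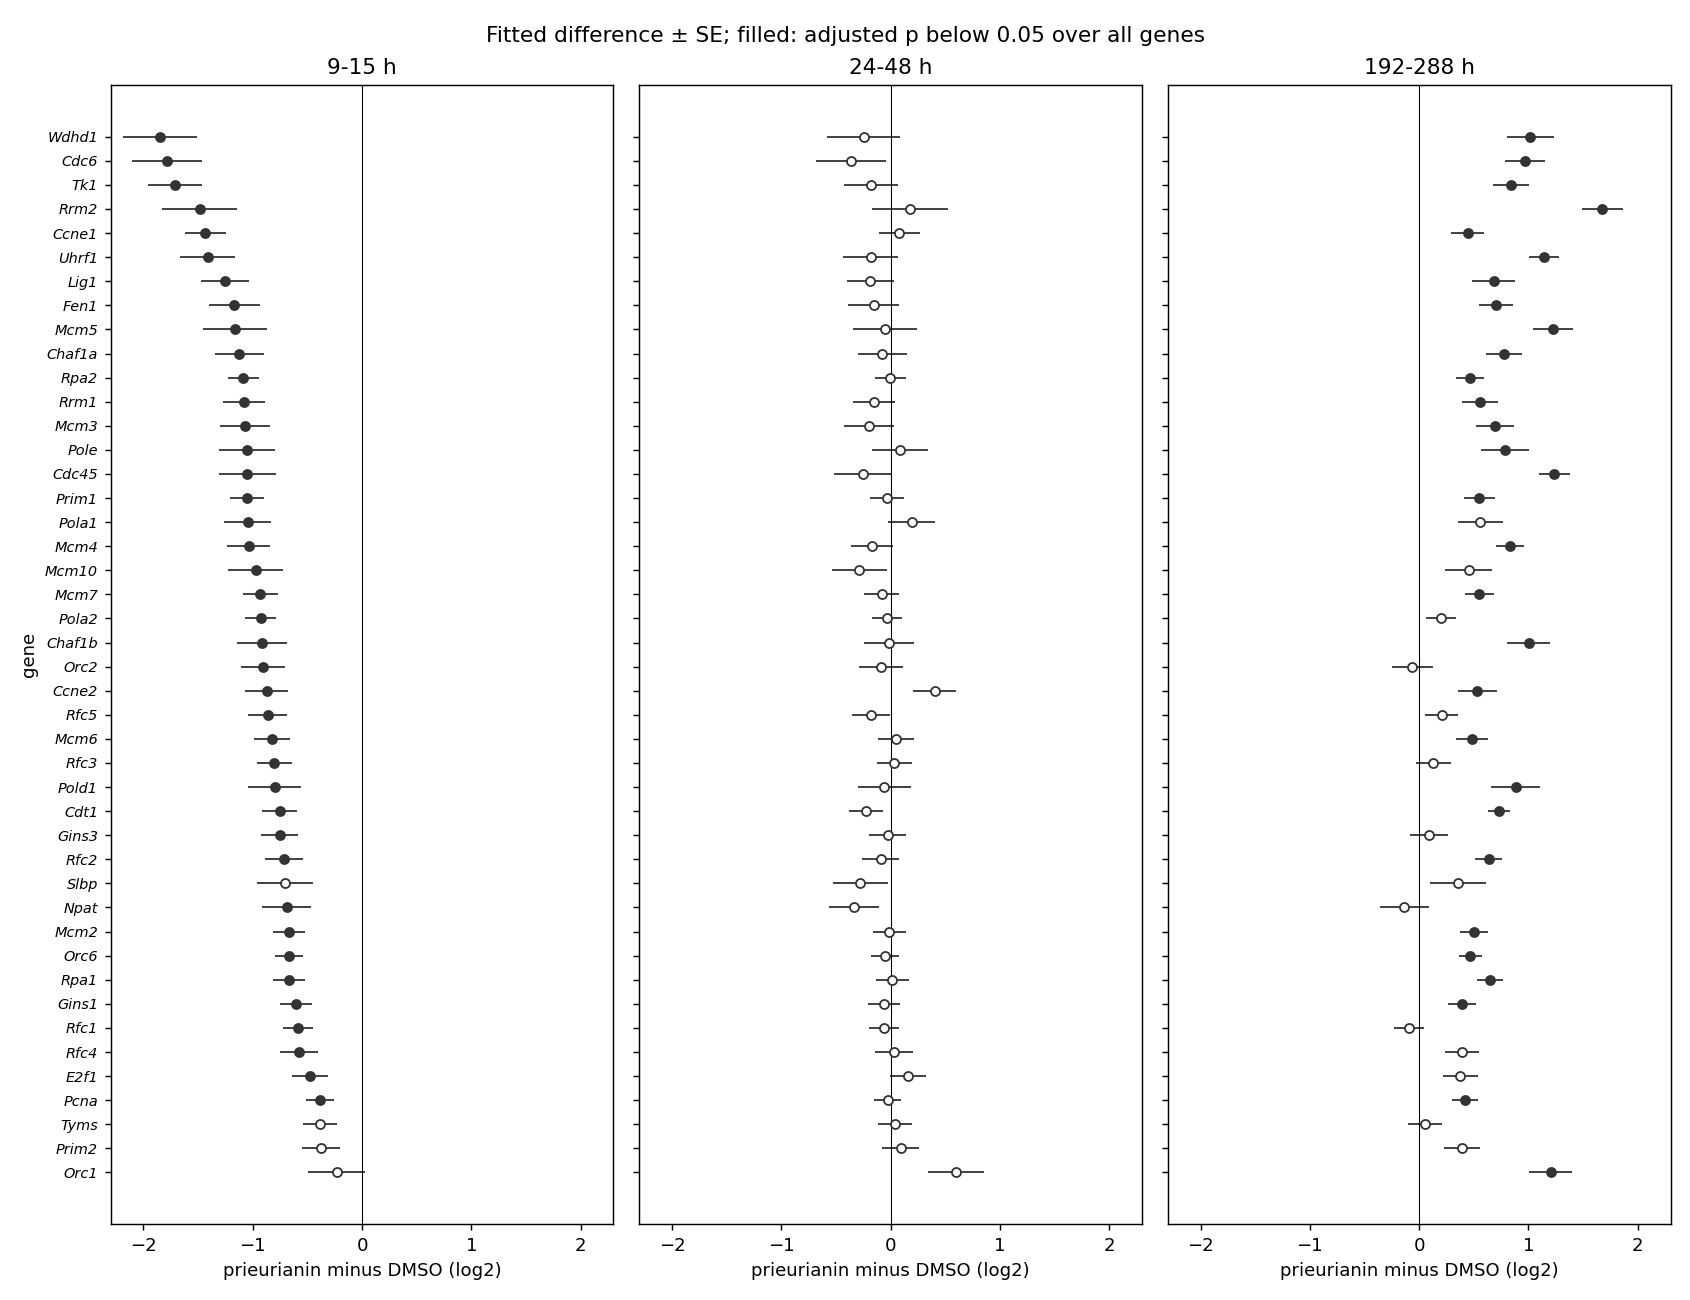
Prieurianin minus DMSO log2 difference of each of the 44 genes in 3 time windows, with points for fitted values, bars for SE and filled points for adjusted p under 0.05. All points lie below 0 at 9 to 15 h (median -0.91), around 0 at 24 to 48 h and mostly above 0 at 192 to 288 h (median 0.55). The last window was chosen after seeing the data.

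Other genes of the same process moved in the same direction. Of 77 further replication and S-phase genes 70 were tested. At 9 to 15 h 48 were lower than in DMSO (9.01% of all genes) and 0 higher. In the change to 24 to 48 h 15 were higher (2.17% of all genes). The nuclease Exo1 (-1.54), the nucleotide pyrophosphatase Dctpp1 (-1.42), the alternative clamp loader subunit Chtf18 (-1.42) and Cdca7 (-1.42) had the largest differences. Of 31 tested G2 and mitosis genes 10 were lower at 9 to 15 h (9.01% of all genes), among them topoisomerase Top2a (-1.53) and the kinase Aurkb (-1.10). The mean of that list peaked at 24 h in all arms (11.41, 11.56 and 11.69 in prieurianin, DMSO and untreated cells). At 15 h it was 10.09, 11.16 and 11.16 in the same order. For mitosis genes that rose by at least 1, the median midpoint was 20.1 h with prieurianin (20 genes). It was 12.5 h in DMSO (23 genes) and 13.64 h in untreated cells (27 genes), so a later rise was not particular to the replication genes. At 192 to 288 h 28 of the 31 were higher with prieurianin than with DMSO (10% of all genes), and 29 without 192 h (15.7%). Of 18 tested G1 regulators 3 were lower at 9 to 15 h (9.01% of all genes). They were the cyclins Ccnd1 (-1.51 ± 0.26) and Ccnd3 (-0.53 ± 0.16) and the ubiquitin ligase subunit Skp2 (-0.59 ± 0.15). Another 2 were higher, as were 971 of all 12792 genes, among them the Cdk inhibitor Cdkn1a (0.50 ± 0.15). With 18 genes, neither G1 count is far from the share over all genes.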

How the data were processed

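Total RNA was amplified, coupled to Cy5 and hybridised to single-colour Mouse OneArray slides, per the labels' protocols. As deposited by the authors, each probe has a linear intensity (a unit inferred from its range, since no label names it); the scanner, any background subtraction and any scaling by the authors are not given in the sources used here. Of 29922 probes 21020 carried 1 gene symbol, and older symbols were replaced with RefSeq ones. After quantile normalisation negative values became 0 and log2(value + 16) was used. Each gene was tested through its brightest probe, if its mean log2 value exceeded 6.07. Fits used limma 3.58.1 in R 4.3.3 with Benjamini-Hochberg adjustment over 12792 genes and a threshold of 0.05. Arms were compared on 51 arrays without 0 h, with time as a factor, which matches arrays of the same time, and with an arm effect in each of 4 windows (26 residual degrees of freedom). A control fit (17) compared single times with 2 to 5 h, and a window fit on all arrays (42) compared windows with 0 to 5 h. The fits were also run on simulated data with independent noise for each array. Neighbouring times are not independent in the real data, so that run does not bear on the p-values. Every measured member is named under its role, with full statistics for the 12 largest called differences at 9 to 15 h and up to 6 per other window, and up to 4 genes of each other list are named. Members, lists, windows and tests were chosen with earlier results of these data known, and the split of the late window was added after seeing the data.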

Additional observations from a re-analysis of the deposited data

Results flagged for a closer look

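The difference between prieurianin and DMSO was itself different between time windows for 2 sets of replication genes, by limma's test of the change of the difference. Between 9 to 15 h and 24 to 48 h it rose for 12 genes: Tk1 by 1.53, Ccne1 by 1.52, Ccne2 by 1.27, Pola1 by 1.24, Uhrf1 by 1.23, Rpa2 by 1.08, Lig1 by 1.07, Prim1 by 1.02, Pola2 by 0.89, Mcm6 by 0.87, Mcm7 by 0.85 and Rfc3 by 0.84. Between 96 to 144 h and 192 to 288 h, a split chosen after seeing the data, it rose for 20 genes. In licensing and the helicase these were Cdc6 (2.08), Orc1 (1.45), Cdt1 (0.94), Orc6 (0.67), Mcm5 (1.83), Mcm4 (1.05), Mcm3 (1.04) and Mcm7 (0.70). At the fork and clamp they were Wdhd1 (2.11), Cdc45 (1.86), Fen1 (1.15), Rfc2 (0.87), Rpa1 (0.80) and Gins1 (0.66). Among the others were Rrm2 (2.34), Uhrf1 (1.55), Tk1 (1.45), Chaf1a (1.15), Chaf1b (1.04) and Ccne1 (0.88). Each value is on the log2 scale, with 1 array per arm and time behind it. The late set is a description only, because its cut was made with these values known.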

How the results depend on the processing

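At 96 to 144 h alone, a window chosen after seeing the data, 4 of the 5 genes higher at 96 to 288 h turned negative against DMSO: Orc1 -0.25, Chaf1b -0.041, Cdt1 -0.21 and Rpa1 -0.15. The fifth, Pold1, was at 0.052. No other recomputed result changed sign. The count of list genes lower than in DMSO at 9 to 15 h (40) was 23 with median scaling and 18 with no replicate block, and 21 to 41 when single times were left out; the list's median difference then ran from -1.13 to -0.78. Against untreated cells the count ran from 26 to 37. Over all genes at 9 to 15 h, 1153 were lower and 971 higher, against 291 and 301 with median scaling and 932 and 478 on the values as deposited, which moved the median of all genes against untreated cells to -0.24, from -0.03. The 12 changes between 9 to 15 h and 24 to 48 h were 1 with median scaling, 2 on deposited values, 0 with no replicate block, 4 with time as a random block, 5 with only the 2 arms compared, 23 with 9 h in the first window and 21 without 192 h, and 2 to 24 when single times were left out. The 5 genes higher at 96 to 288 h were 0 with median scaling, on deposited values, with no replicate block or with only 2 arms, 1 with a random block, 3 with no filter, 2 without 192 h, 0 to 15 when single times were left out, 30 at 192 to 288 h alone and 34 at 240 to 288 h alone. The 0 lower genes there were 2 without 192 h, 0 to 2 when single times were left out and 4 at 96 to 144 h alone. For DMSO against untreated cells at 9 to 15 h, 2 calls were 1 with no replicate block, 4 with only the 2 arms, and 0 to 2 when single times were left out. The late fall of the prieurianin arm ran from 24 to 30 genes. Causes of these moves were not tested. Same-time arrays form the block here, and no label says that they share a culture. Levels come from 1 array per arm and time, and fewer residual degrees of freedom in narrower fits limit what can be called.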
